A study of Mus musculus with 4 samples.

Results

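The collagen chain genes were followed through cultures of adherent cells from the mouse spleen. They were taken as every gene whose symbol in the array tables names a collagen alpha chain, and 42 of the 19761 genes with a single symbol met that rule, measured by 83 probe sets. Where a gene had several probe sets, the one with the greatest mean signal on the 4 arrays stood for it. SACCs are adherent splenic cells taken as compact colonies, and the controls are adherent splenic cells taken as a monolayer, all grown from pieces of C57BL/6J spleen. SACC replicate 1 had been moved from serum-containing plain medium to a serum-free medium for embryonic stem (ES) cells once colonies began to form, while SACC replicate 2 and both controls were in plain medium. The labels assign control replicate 1 to the former and control replicate 2 to the latter, which gives an ES pair and a plain pair. Whether separate animals or cultures were sampled is not stated in the labels, so the spread between pairs may be technical, and in the ES pair colony state and medium cannot be told apart.

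Collagens are secreted proteins in which alpha chains wind into a triple helix. Fibrillar collagens (types I, II, III, V, XI, XXIV and XXVII) assemble into the fibres that give connective tissue its strength. Type IV chains form the network of basement membranes, and FACIT collagens sit on fibril surfaces and link them to their surroundings. The remaining types include the beaded filaments of type VI, the anchoring fibrils of type VII, the short-chain networks of types VIII and X, the membrane-spanning types and the multiplexins XV and XVIII. In the spleen, collagens are made mainly by the fibroblasts of the capsule, trabeculae and reticular network, and type IV also by cells that lie on a basement membrane.

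Values are log2 expression, and a ratio is the SACC value minus the control value of the same pair, where 1 is a 2-fold higher level in SACCs. Array medians ran from 4.34 to 4.59 and maxima from 14.11 to 14.24. By that 1 probe set a gene, 25 of the 42 genes lay above the median on all 4 arrays, 6 on some of them and 11 on none, and later statements on genes above or below a median refer to it as well. No detection calls were used, so ratios of genes near or below the median are uncertain. Precision is limited by the number of arrays.

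Collagen chain genes were more often higher than lower in SACCs. In both pairs 24 of the 42 were higher, where 30.4% of all genes were, and 9 were lower, where 34.7% were. At least 2-fold higher in both pairs were 15 of 42, against 3.38% of all genes, and none was 2-fold lower in both, against 2.68%. All 15 were among the 31 genes above the median on at least 1 array, a set in which the background was 5.06%. In each pair alone 17 were at least 2-fold higher, against 6.51% (ES pair) and 6.01% (plain pair) of genes, and none was 2-fold lower, against 4.08% and 5.19%. The median ratios of the 42 were 0.6 (ES pair) and 0.45 (plain pair), beside -0.01 and -0.02 over all genes. Both SACC arrays lay above both control arrays for 21 of the 42 (18.3% of all genes) and below them for 3 (19.5%), although the tables of the pairs appear to be normalized separately.

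In limma's test over both pairs, blocked by pair and with p adjusted by Benjamini-Hochberg across the 45037 probe sets, 4 of the 42 genes rose and none fell, where 0.936% and 1.04% of all genes did. These were Col8a2, Col15a1, Col1a1 and Col6a1. At an unadjusted p under 0.05 limma gave 19 higher and 1 lower, Col20a1. Of all 45037 probe sets 7608 were under it, in either direction. The smallest adjusted p of the whole fit was 0.0476 and is the value of Col8a2, Col15a1 and Col1a1, so these calls lay just inside the threshold. No call remained with each array centred on its median (smallest adjusted p of a collagen gene 0.0636) or without the pair as a block (0.18). Quantile normalization gave 15 and an adjusted p of 0.10 also gave 15, all higher. Of all 45037 probe sets these settings called 2045 and 2188, in either direction, against 587 in the fit above. Leaving out an array was fitted without the block. That fit passed no probe set even with all 4 arrays, so leaving out an array cannot show how far the calls depend on it.

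**Figure D1:**
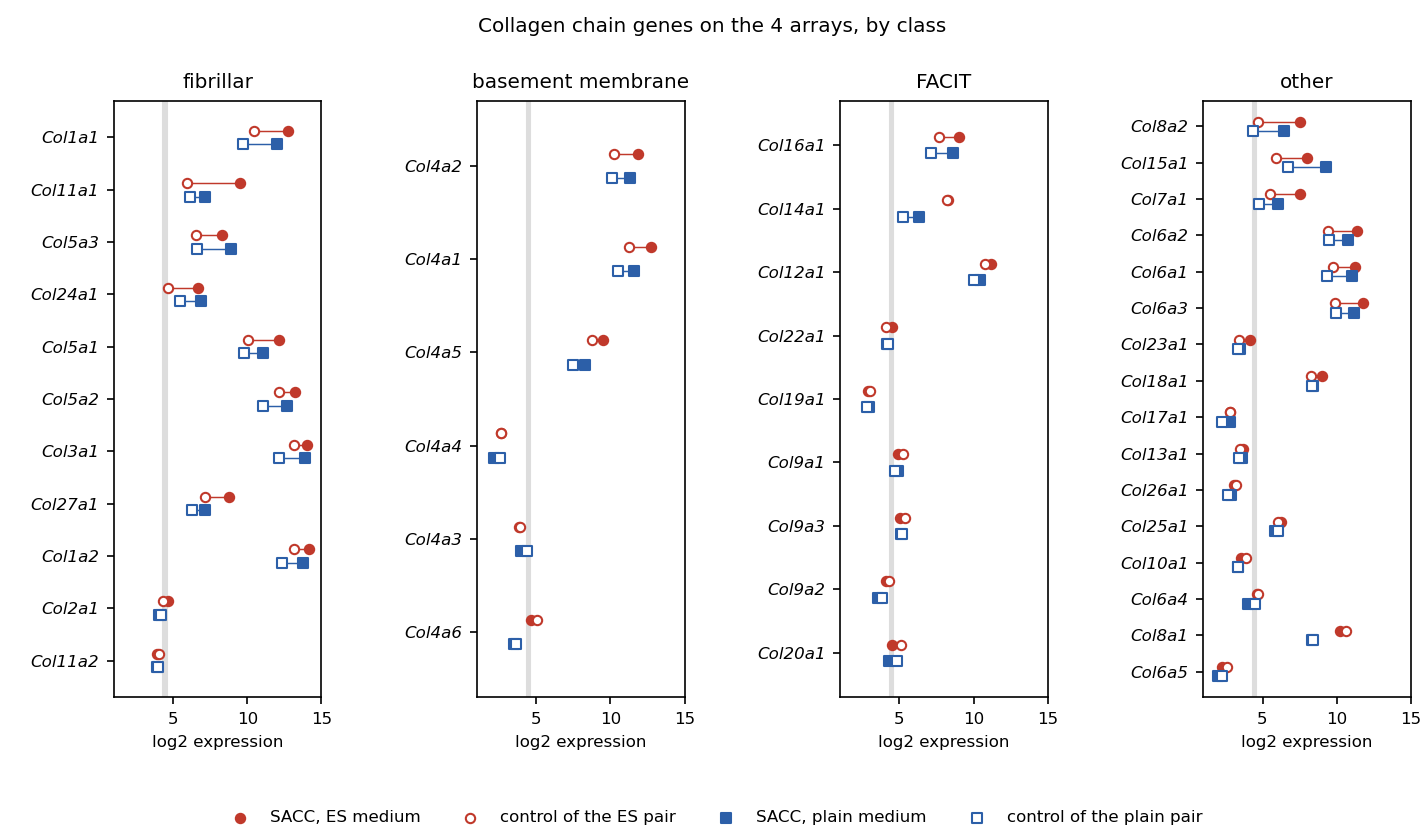
Log2 expression of each collagen gene on the 4 arrays, by class, genes ordered by mean ratio. Circles are the ES pair and squares the plain pair, filled for SACCs and open for controls, each point 1 array. The grey band spans the array medians, 4.34 to 4.59. Most chains with values to the right of the band have the filled point to the right of the open one, as Col1a1 (12.77 against 10.45 and 12.01 against 9.73), and Col8a1 does not (10.21 against 10.63 and 8.31 against 8.4).

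Over all measured members, the fibrillar class had the highest median ratios. Of 11 measured, 10 lay above an array median, 9 were higher in both pairs, and 6 of them by 2-fold or more. The median ratios of the 11 were 1.65 (ES pair) and 1.42 (plain pair). Over the 10 above an array median they were 1.685 and 1.435. Genes of the other types above an array median had 1.705 and 1.215. Col1a1, the major chain of type I collagen, read 12.77 in the SACCs and 10.45 in the control of the ES pair, and 12.01 and 9.73 in the plain pair. Both SACC arrays were above both controls, and the ratios, 2.32 and 2.28, were nearly equal. It rose by 2.3 ± 0.16 (SE of limma's fit, n = 2 pairs), a 4.92-fold difference with a limma adjusted p of 0.0476. This standard error draws on the spread of all probe sets and not on the gene alone.

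Col1a2, the other chain of type I collagen, read 14.16 and 13.16 in the ES pair and 13.77 and 12.32 in the plain pair. Its ratios were 1.0 and 1.45, with a mean of 1.23 ± 0.19 and a limma adjusted p of 0.0835. The value of 14.16 was the highest of its array. Col3a1, the single chain of type III collagen, which shares fibres with type I, read 14.01 and 13.14, then 13.86 and 12.13. Its ratios of 0.87 and 1.73 averaged 1.3 ± 0.27, with an adjusted p of 0.127 in limma. For both genes 3 of the 4 values lay within 1 of the array maximum, and other probe sets of theirs gave larger ratios, as described further on.

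Chains of type V collagen, which starts fibrils and limits their width, were all higher in both pairs. Col5a1 read 12.12 and 10.03 in the ES pair and 11.08 and 9.79 in the plain pair, with ratios of 2.09 and 1.29. Col5a2 read 13.24 and 12.16, then 12.65 and 11.05, with ratios of 1.08 and 1.6. Col5a3, a chain of a less common form of type V, read 8.26 and 6.54, then 8.91 and 6.63, with ratios of 1.72 and 2.28, a mean of 2.0 ± 0.21. For each of these chains both SACC arrays lay above both controls. None passed the test, with limma adjusted p of 0.0782, 0.0786 and 0.0508. Averaged over its 2 probe sets, the dimmer of which lay above no array median, Col5a3 had a mean ratio of 0.8.

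Col24a1 read 6.66 and 4.65 in the ES pair and 6.84 and 5.42 in the plain pair (mean ratio 1.72 ± 0.22, limma adjusted p 0.0603). Col27a1 read 8.78 and 7.13, then 7.15 and 6.26, with ratios of 1.65 and 0.89. Both encode fibrillar chains that are best known from developing cartilage and bone, and both were higher in each pair. Col2a1, the collagen of cartilage, read 4.65 and 4.32, then 4.06 and 4.18, and Col11a2, its partner in cartilage fibrils, stayed between 3.87 and 4.01 on all arrays. These 2 genes were near or below the array medians throughout, as were 7 of the 8 chondrocyte markers. The eighth, Sox9, had a mean ratio of 1.12 ± 0.16 (limma adjusted p 0.0706).

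Col11a1, a chain of type XI collagen, showed the largest difference between the pairs. It read 9.52 in SACCs and 5.93 in the control of the ES pair, against 7.11 and 6.16 in the plain pair. Its ratios of 3.59 and 0.95 therefore differed by 2.64, and its mean of 2.27 ± 0.68 did not pass the test (limma adjusted p 0.231). The mean was 1.07 without SACC replicate 1 and 3.48 without SACC replicate 2, fitted without the block. A second probe set gave 9.36 and 5.66, then 6.99 and 6.0. It was the only collagen gene with ratios at least 4-fold apart between the pairs with the ES pair larger, where 0.724% of all genes were, and none was so far apart the other way, against 0.344%. With 1 pair of each kind this difference was not tested.

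**Figure D2:**
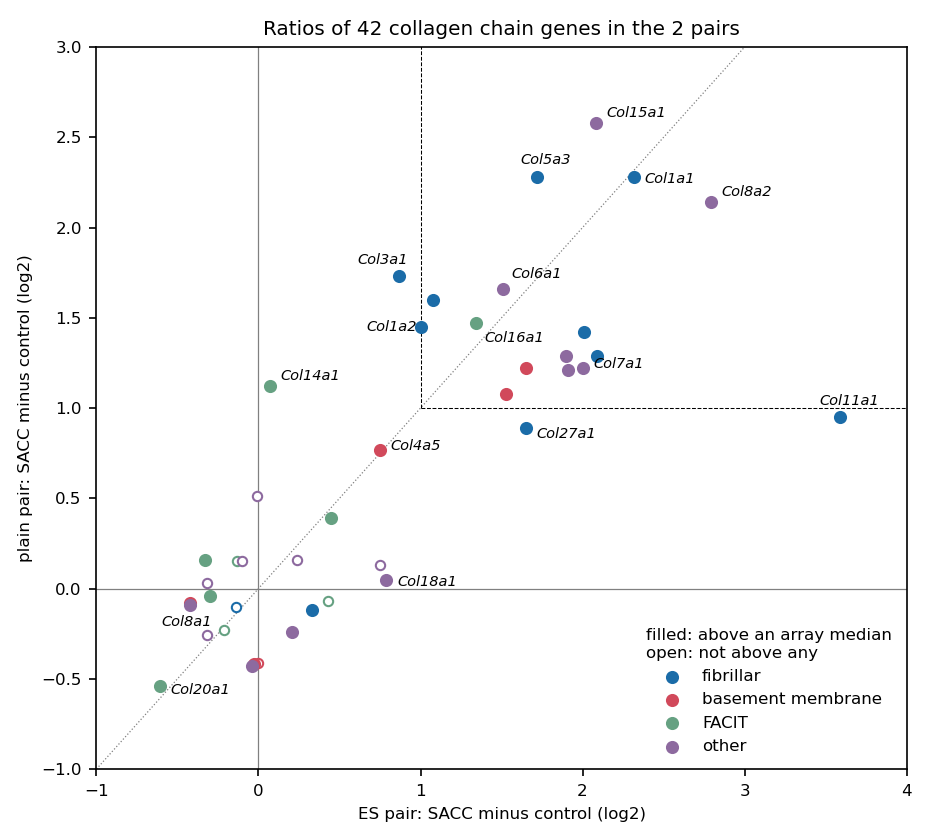
Ratio of each of the 42 collagen genes in the ES pair (x axis) and the plain pair (y axis), log2 SACC minus control, coloured by class. The dashed lines bound the corner that is at least 2-fold higher in both pairs, which holds 15 genes, the dotted line marks equal ratios, and open points are the 11 genes not above any array median. Col11a1 lies far to the right of the dotted line, at 3.59 and 0.95.

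Basement membrane collagen divided by chain. Of the 6 type IV genes, Col4a1 and Col4a2, whose chains form the common network of most basement membranes, were at least 2-fold higher in both pairs. Col4a1 read 12.75 and 11.22 in the ES pair and 11.62 and 10.54 in the plain pair, and Col4a2 11.89 and 10.24, then 11.3 and 10.08. Their ratios were 1.53 and 1.08 for Col4a1 and 1.65 and 1.22 for Col4a2, and in both genes the SACC arrays lay above the controls. The limma adjusted p were 0.0762 and 0.0659, so neither passed the test.

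Col4a5, a chain of the specialised networks of kidney and smooth muscle, had ratios of 0.75 and 0.77 (9.52 and 8.77, then 8.25 and 7.48). Its usual partner Col4a6 had ratios of -0.42 and -0.08, with values of 5.04 or less on every array. Col4a3 and Col4a4, chains of the glomerular network, read between 3.84 and 4.38 and between 2.16 and 2.6. The class medians, 0.38 (ES pair) and 0.35 (plain pair), thus fall between chains that were higher and chains that lay near or below the array medians. Over the 5 genes above a median on at least 1 array they were 0.75 and 0.77.

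FACIT genes had medians near 0, at -0.13 (ES pair) and 0.15 (plain pair), and 1 of 9 genes reached 2-fold in both pairs. That gene was Col16a1, whose chain joins small fibrils and microfibrils. It read 9.01 and 7.67 in the ES pair and 8.59 and 7.12 in the plain pair, averaging a ratio of 1.41 ± 0.16 (limma adjusted p 0.0538). Col12a1, abundant in tendon and dense connective tissue, had ratios of 0.45 and 0.39 (11.21 and 10.76, then 10.41 and 10.02). Both were higher in SACCs within each pair, although for Col12a1 the arrays of the groups overlapped.

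Col14a1, a FACIT of mature fibrils, read 8.28 and 8.21 in the ES pair but 6.34 and 5.22 in the plain pair. Its ratios were 0.07 and 1.12, while a second probe set, above the median on all arrays, gave -0.41 and 1.07. It was high on both arrays of the ES pair and low on both of the plain pair. Col20a1, a FACIT best described in chick embryos, had the lowest mean ratio of all 42, -0.58 ± 0.16 (limma adjusted p 0.201), with 4.48 and 5.09, then 4.29 and 4.83. A probe set of Col20a1 that was about as bright gave ratios of -0.42 and 0.02, and the mean over all its probe sets was -0.25. The cartilage chains Col9a1, Col9a2 and Col9a3 had ratios between -0.33 and 0.16. Col19a1 and Col22a1 were above no array median.

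The 16 genes of the other types held the 2 highest mean ratios, those of Col8a2 and Col15a1. Their medians were 0.5 and 0.16 (ES pair, plain pair) over all 16, and 1.71 and 1.22 over the 10 above an array median. Of the 16, 6 were at least 2-fold higher in both pairs, and another 6 lay above no array median. Col8a2, a chain of the type VIII network found below corneal and vascular endothelium, read 7.51 and 4.72 in the ES pair and 6.47 and 4.33 in the plain pair. It rose by 2.47 ± 0.23 (n = 2 pairs), a 5.52-fold difference with a limma adjusted p of 0.0476, from a control in the plain pair that lay just below the median of its array.

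Col8a1, the other type VIII chain, did not share this. It read 10.21 and 10.63 in the ES pair and 8.31 and 8.4 in the plain pair, with ratios of -0.42 and -0.09 and a limma adjusted p of 0.559. The SACC and control arrays overlapped, and the values followed the pair more than the cell state. Between the tables, Col8a1 was higher in the ES pair by 1.9 for SACCs and by 2.23 for controls, beside medians of 0.17 and 0.2 over all probe sets, although both controls were in plain medium. All 3 probe sets of Col8a1 had mean ratios below 0.

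Col15a1, a multiplexin that ties basement membranes to the fibrils beside them, read 7.98 and 5.9 in the ES pair and 9.3 and 6.72 in the plain pair. It rose by 2.33 ± 0.2, a 5.03-fold difference with a limma adjusted p of 0.0476, and its plain pair ratio of 2.58 was the highest of all 42 in that pair. Col18a1, the other multiplexin and the precursor of endostatin, had ratios of 0.79 and 0.05 (9.04 and 8.25, then 8.38 and 8.33). On this probe set the arrays of Col18a1 separated by group, but by only 0.05 in the plain pair. A second probe set, above the median on all arrays, gave ratios of 1.13 and -0.18. It read 8.76 and 7.63, then 7.22 and 7.4, so the groups overlapped on it.

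Type VI collagen forms beaded filaments around cells from chains encoded by Col6a1, Col6a2 and Col6a3. Col6a1 read 11.27 and 9.76 in the ES pair and 11.04 and 9.38 in the plain pair, and rose by 1.59 ± 0.16 (limma adjusted p 0.0495). Col6a2 read 11.35 and 9.45, then 10.78 and 9.49, and Col6a3 11.81 and 9.9, then 11.16 and 9.95. The 3 mean ratios were close, at 1.59, 1.6 and 1.56, and the SACC arrays were above the controls for each gene. Col6a2 and Col6a3 did not pass the test, with limma adjusted p of 0.0688 and 0.0782. Col6a4 and Col6a5, which encode chains that can take the place of the third one, had ratios of -0.04 and -0.43 and of -0.32 and -0.26 at values of 4.67 or less.

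Col7a1, the anchoring fibril collagen that fastens epithelium to the tissue below, read 7.53 and 5.53 in the ES pair and 6.01 and 4.79 in the plain pair. Its ratios were 2.0 and 1.22 (limma adjusted p 0.0816). Of the membrane-spanning collagens, Col25a1 lay above the array medians, with ratios of 0.21 and -0.24. The representative probe sets of Col13a1, Col17a1 and Col23a1, and those of Col10a1, the collagen of hypertrophic cartilage, and Col26a1, lay above no array median, with ratios from -0.32 to 0.75. Col23a1 had a dimmer probe set by its mean, with 5.07 and 2.52, then 3.56 and 2.9, which was above the median on the array of SACC replicate 1. Its ratios were 2.55 and 0.66 (mean 1.61 ± 0.5, limma adjusted p 0.242), against 0.75 and 0.13 on the representative one.

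**Figure D3:**
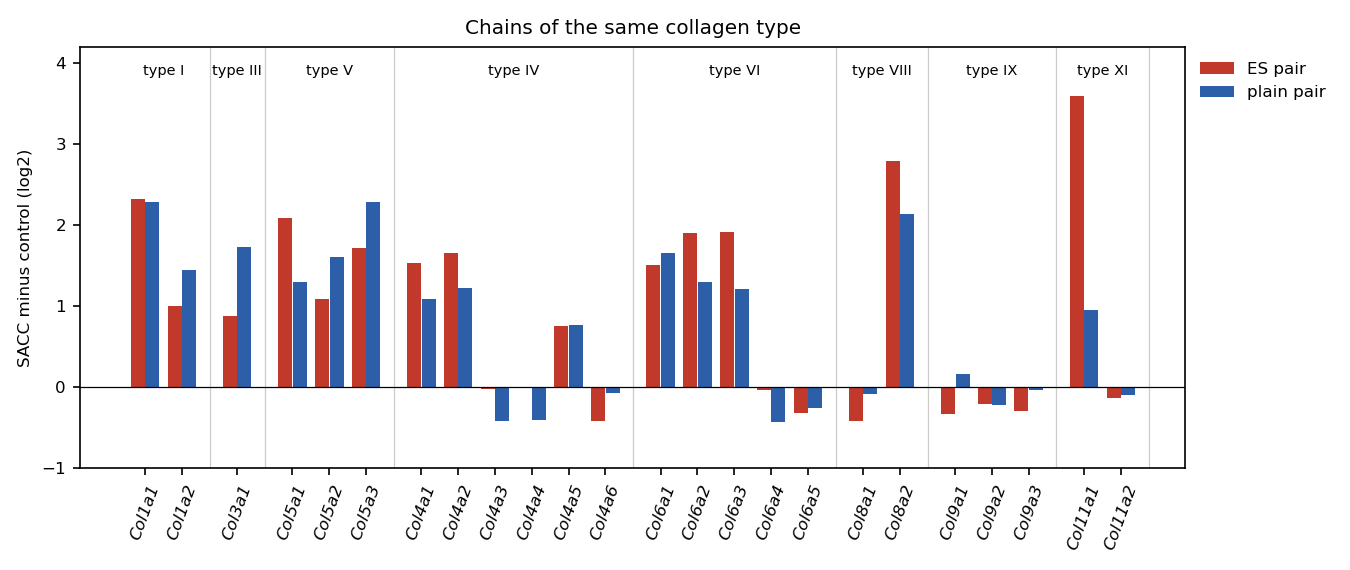
Ratios (log2 SACC minus control) of the chains of 8 collagen types, red bars for the ES pair and blue for the plain pair, each bar 1 array against 1. Within types I, V and VI (Col6a1 to Col6a3) the bars point up together, while Col8a2 (2.79 and 2.14) stands beside Col8a1 (-0.42 and -0.09) and Col11a1 (3.59 and 0.95) beside Col11a2 (-0.14 and -0.1).

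Several collagen genes lie next to each other in the genome. In the RefSeq annotation of GRCm38.p6, Col4a1 and Col4a2 overlap at their starts on opposite strands of chromosome 8 and had similar ratios (1.53 and 1.08, against 1.65 and 1.22). Col6a1 and Col6a2 (1.51 and 1.66, against 1.9 and 1.29) and Col3a1 and Col5a2 (0.87 and 1.73, against 1.08 and 1.6) are also neighbours, and each member was higher in both pairs. The divergent genes Col4a5 and Col4a6 on the X chromosome are a neighbouring pair with ratios on opposite sides of 0 (0.75 and 0.77, against -0.42 and -0.08), the latter at dim values. Among the dim genes, Col4a3 and Col4a4 are neighbours as well.

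RefSeq start sites (GRCm38.p6) gave 36 upstream windows of 250 bases for 33 of the 42 genes. Some start sites lie inside the annotated gene. The window of Col15a1 falls wholly within its gene and that of Col11a1 partly, so sequence upstream of the outer gene start is left out. Windows are given for the genes that rose, where the table held 1, for the partner Col8a1 that did not, and for Col1a2, Col3a1 and Col11a1. They read 5′ to 3′ on the strand of the gene and end at the base before the start site, and capitals mark CCAAT (read as ATTGG on the other strand), the GC box GGGCGG (read as CCGCCC) or the TATA motif TATAAA (read as TTTATA), matches of the same motif being allowed to overlap.
Col1a2 (chr6:4505368-4505617, plus strand): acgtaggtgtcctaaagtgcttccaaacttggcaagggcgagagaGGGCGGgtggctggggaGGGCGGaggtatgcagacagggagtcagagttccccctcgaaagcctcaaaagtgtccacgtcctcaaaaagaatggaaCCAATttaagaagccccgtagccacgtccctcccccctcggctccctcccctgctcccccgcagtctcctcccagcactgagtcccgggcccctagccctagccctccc
Col3a1 (chr1:45311288-45311537, plus strand): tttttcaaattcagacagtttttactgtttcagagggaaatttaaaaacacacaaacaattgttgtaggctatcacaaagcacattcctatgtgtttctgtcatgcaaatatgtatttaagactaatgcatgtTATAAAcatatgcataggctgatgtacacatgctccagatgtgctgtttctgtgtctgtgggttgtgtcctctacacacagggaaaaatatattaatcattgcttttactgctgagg
Col11a1 (chr3:114030290-114030539, plus strand): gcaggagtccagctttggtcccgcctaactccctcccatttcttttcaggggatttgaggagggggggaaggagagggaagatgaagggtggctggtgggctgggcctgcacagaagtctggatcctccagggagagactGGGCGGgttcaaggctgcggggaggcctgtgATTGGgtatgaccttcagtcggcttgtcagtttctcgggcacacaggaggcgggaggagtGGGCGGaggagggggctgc
Col6a1 (chr10:76726045-76726294, minus strand): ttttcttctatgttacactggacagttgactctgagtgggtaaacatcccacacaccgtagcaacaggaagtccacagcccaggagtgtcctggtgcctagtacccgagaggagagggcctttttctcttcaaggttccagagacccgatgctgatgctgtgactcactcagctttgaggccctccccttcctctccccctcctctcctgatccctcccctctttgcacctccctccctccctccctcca
Col15a1 (chr4:47207762-47208011, plus strand): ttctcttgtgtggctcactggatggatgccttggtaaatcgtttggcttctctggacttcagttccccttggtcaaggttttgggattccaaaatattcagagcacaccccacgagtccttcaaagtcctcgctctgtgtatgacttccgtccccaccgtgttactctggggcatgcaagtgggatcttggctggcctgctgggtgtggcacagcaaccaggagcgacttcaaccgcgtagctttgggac
Col8a2 (chr4:126286544-126286793, plus strand): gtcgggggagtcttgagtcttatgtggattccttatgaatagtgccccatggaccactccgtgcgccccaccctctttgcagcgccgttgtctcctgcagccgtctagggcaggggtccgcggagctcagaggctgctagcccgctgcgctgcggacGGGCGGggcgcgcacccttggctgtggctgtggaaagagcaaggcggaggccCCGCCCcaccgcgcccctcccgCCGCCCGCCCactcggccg
Col8a1 (chr16:57754738-57754987, minus strand): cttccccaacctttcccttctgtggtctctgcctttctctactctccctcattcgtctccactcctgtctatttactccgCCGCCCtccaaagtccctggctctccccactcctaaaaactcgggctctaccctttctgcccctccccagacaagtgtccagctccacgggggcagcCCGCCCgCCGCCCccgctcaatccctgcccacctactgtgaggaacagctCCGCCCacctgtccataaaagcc
Whether these letters go with the ratios was not tested. Col8a2 and Col8a1 each held GGGCGG 4 times, and the windows of Col6a1 and Col15a1 held none of these motifs, which says only that the letters are not in these 250 bases. Col1a2 held CCAAT once and GGGCGG 2 times, and Col3a1 TATAAA once. Over the 36 collagen windows CCAAT was present in 36.1%, GGGCGG in 58.3% and TATAAA in 13.9%, beside 33.8%, 32.7% and 12.4% of 32851 windows of all genes. Of the 14 windows of genes at least 2-fold higher in both pairs, 6 held CCAAT, 9 GGGCGG and 0 TATAAA. A match is a description of the sequence and not a binding site.

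Probe sets of the same gene bear on how large these ratios are. Of 27 collagen genes with several probe sets, 15 had more than 1 above an array median, and in none of the 15 did the mean ratios of these brighter probe sets differ in sign. Over all probe sets the mean ratios differed in sign in 9 of the 27. Of the 83 probe sets, 9 passed limma's test, all higher, in 8 genes, where 0.642% of all probe sets were higher and 0.662% lower past it. For Col1a2, Col3a1, Col5a1 and Col5a2 a dimmer probe set than the representative one passed. Col3a1 had 12.27 and 9.97, then 11.29 and 8.6, on its second brightest probe set, ratios of 2.3 and 2.69, and a mean of 2.5 ± 0.18 (limma adjusted p 0.0476) beside 1.3 on the brightest.

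Col1a2 had 13.37 and 11.43, then 12.57 and 10.86, on its second probe set, a mean of 1.83 ± 0.17 (limma adjusted p 0.0476) beside 1.23. For Col5a1 the mean ratios were 2.29, 2.12 and 1.69 from the dimmest to the brightest probe set, and for Col5a2 1.98 and 1.34. The brightest probe set gave the smallest ratio in each of these 4 genes. They were picked because a dimmer probe set passed where the brightest did not, which favours such an order. Among probe sets above an array median, Col11a1, Col12a1 and Col18a1 had the same order. Col4a1, Col4a5, Col6a2, Col14a1 and Col27a1 had the reverse. The cause was not tested. Col1a1 also had the reverse order. Its second probe set, only slightly dimmer, had 12.18 and 10.79, then 11.4 and 10.14, for a mean ratio of 1.33 ± 0.16 (limma adjusted p 0.0581), beside 2.3. The call for Col1a1 thus rests on 1 of its 2 probe sets.

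**Figure D4:**
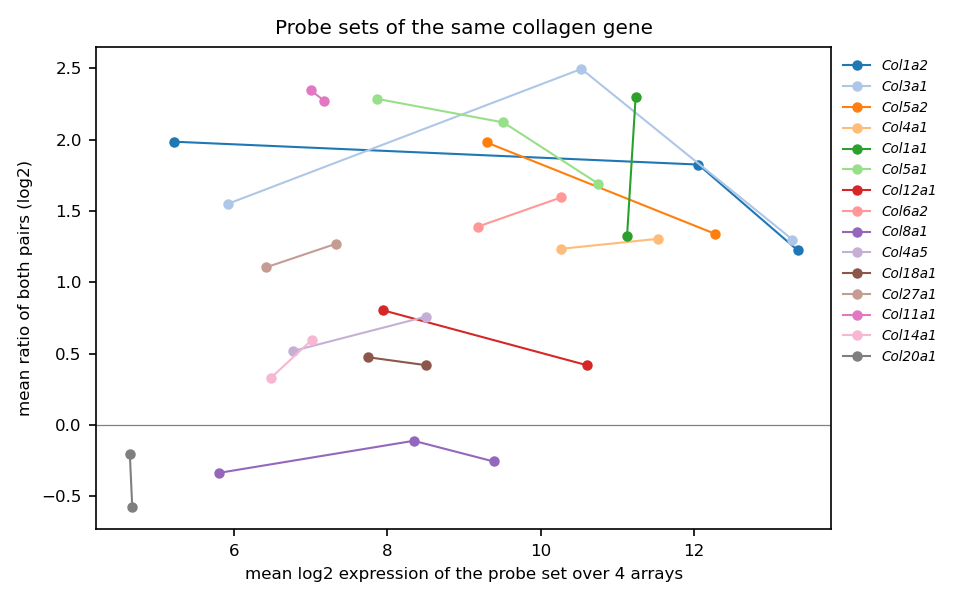
Mean ratio of both pairs (log2 SACC minus control) against mean log2 expression for the probe sets above an array median of the 15 genes that have several, with lines joining the probe sets of a gene. No gene has points on both sides of 0. Col1a2 and Col3a1 fall to 1.23 and 1.3 at their brightest probe sets, and Col1a1 has 2 probe sets of similar brightness at 1.33 and 2.3.

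Genes that act on collagen were read beside the chains, from lists that had been chosen with earlier results of these arrays known. Collagen is hydroxylated, glycosylated and folded in the endoplasmic reticulum before it is secreted. Of 20 genes for these steps and for export, 17 were higher in both pairs (30.4% of all genes), with medians of 1.06 and 0.81, 4 rose (0.936%) and none fell (1.04%). The genes that rose were Plod2, a lysyl hydroxylase that prepares crosslinks (1.89 ± 0.16), the prolyl 3-hydroxylase P3h1 (1.81 ± 0.16), its relative P3h4 (1.7 ± 0.16) and Sec23a (1.53 ± 0.16), a coat protein of vesicles that carry procollagen, with limma adjusted p from 0.0476 to 0.0495. The chaperone Serpinh1, specific to collagen, read 12.73 and 11.65, then 12.19 and 10.9 (mean 1.19, limma adjusted p 0.0694). Plod1 (mean -0.15) and Ctage5 (-0.62) did not follow the others.

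Procollagen is then trimmed outside the cell and crosslinked. Of 15 measured genes for these steps 12 were higher in both pairs (30.4% of all genes), with medians of 1.15 and 1.46, 2 rose (0.936%) and none fell (1.04%). Adamts3, which removes the amino-terminal propeptide, read 7.39 and 4.16, then 7.31 and 3.67, and rose by 3.44 ± 0.19 (limma adjusted p 0.0476) from controls below the array medians. Bmp1, the protease for the carboxy-terminal propeptide, rose by 2.02 ± 0.16 (0.0476). The fibril-binding proteoglycan Lum averaged 1.87 (limma adjusted p 0.058). Lum and Dcn of this list are also among the fibroblast markers. The crosslinking enzyme Loxl1 averaged 1.69 ± 0.18 (limma adjusted p 0.0508).

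Of 17 basement membrane partners of type IV collagen 13 were higher in both pairs (30.4% of all genes), with medians of 0.9 and 1.17, and 2 rose (0.936%). The peroxidase Pxdn, which forms sulfilimine crosslinks in type IV collagen, rose by 1.73 ± 0.16, and the proteoglycan Agrn by 1.53 ± 0.16 (limma adjusted p 0.0476 and 0.0495), and none fell. The laminin chain Lamb1 had a mean ratio of 1.77 ± 0.26 (limma adjusted p 0.0762), Lama1 1.63 and Lama2 1.61.

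Receptors and proteases were less uniform. Of 10 measured collagen receptors 6 were higher and 2 lower in both pairs (30.4% and 34.7% of all genes), none rose (0.936%) and 1 fell (1.04%). The gene that fell was Lair1, an inhibitory collagen receptor of leukocytes, with 5.8 and 8.12, then 5.88 and 8.9 (mean -2.67 ± 0.24, limma adjusted p 0.0476). Mrc2, which takes up collagen for degradation, and Ddr1, a collagen-activated kinase, had mean ratios of 1.53 and 1.46. Of 9 proteases that cleave collagen or gelatin 4 were higher and 3 lower in both pairs (30.4% and 34.7% of all genes), and 1 rose (0.936%). Mmp2, a gelatinase of fibroblasts, read 12.55 and 8.71, then 12.08 and 9.38, and rose by 3.27 ± 0.33 (limma adjusted p 0.0487), while the collagenase Mmp13 had ratios of -0.94 and -3.58. Ctsk, a lysosomal collagenase, had ratios of 3.23 and 0.23, far apart between the pairs (mean 1.73, limma adjusted p 0.384).

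**Figure D5:**
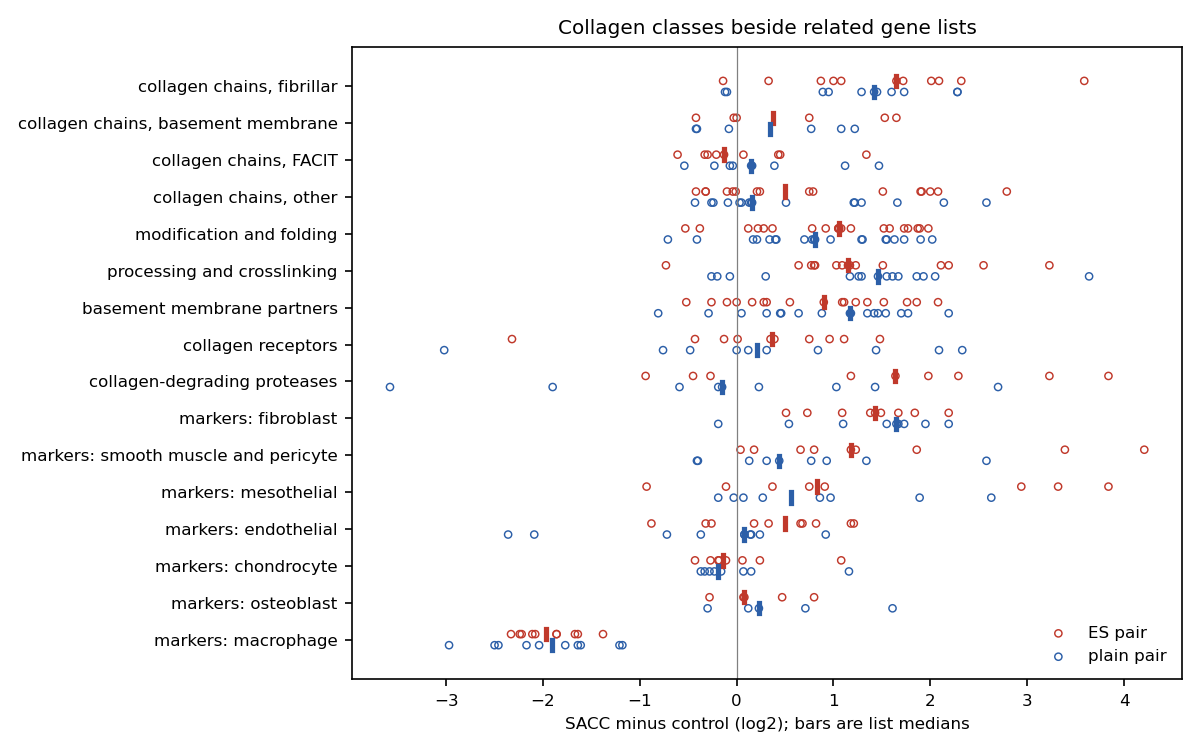
Ratios (log2 SACC minus control) of the genes of the 4 collagen classes, of the lists of genes that act on collagen and of cell type markers, 1 point per gene, red for the ES pair and blue for the plain pair, with bars at the list medians. The fibrillar medians (1.65 and 1.42) lie beside those of fibroblast markers (1.43 and 1.65), and the macrophage medians are -1.97 and -1.91.

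Cell type markers were read beside the collagen genes and did not all go the same way. Fibroblast markers were higher in both pairs for 8 of 9 (30.4% of all genes), of which Fap and Postn rose in limma's test (0.936%), and their linear signals summed to 27793 and 12030 for SACCs and control of the ES pair, then 23796 and 9047. All 10 macrophage markers were lower in both pairs (34.7% of all genes), of which Adgre1, Cd68, Csf1r, Mertk, Ptprc and Trem2 fell in the test (1.04%), with sums of 11493 and 42068, then 15234 and 45970, and each of them lay above the median on all arrays. In RNA from whole cultures fewer cells of a type and less RNA per cell cannot be told apart, and the part of these differences in the collagen ratios was not tested. Smooth muscle and pericyte markers were higher in both pairs for 7 of 9, with sums of 22877 and 14747, then 13160 and 10869. Most of these sums came from Acta2 (ratios 0.18 and 0.13, 2 of 4 values within 1 of the array maximum). Rgs5, a pericyte gene, rose by 2.99 ± 0.26 (limma adjusted p 0.0476), but others of this list did not follow. Cspg4 had ratios of 0.04 and -0.4, and Mcam of 0.8 and -0.41. Mesothelial markers were higher for 6 of 8, with sums of 679 and 129, then 565 and 168, and 4 of the 8 lay above no array median. The largest ratios were those of Wt1, 3.84 and 2.63 (limma adjusted p 0.0508), while Msln and Muc16 were lower in both pairs at dim values. Endothelial markers were higher for 5 of 10 and lower for 2, Stab2 and Vwf (-0.88 and -2.36 for Vwf), with sums of 401 and 290, then 244 and 326. The endothelial markers Pecam1, Tek, Tie1 and Erg lay above no array median.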

How the data were processed

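RNA was column-purified and labelled with biotin as cRNA for Affymetrix arrays, per the labels' protocols. The authors deposited log2 expression for each probe set, in a table for each pair. The submitters' processing notes name Transcriptome Analysis Console, and the normalization is not given in the sources used here. The tables appear normalized separately, so ratios were taken within a table. The labels name the control of each SACC array, which is the source of the pairing, and 2 pairs are too few to check it. Linear models were fitted in R 4.3.3 with limma 3.58.1 and its eBayes moderation, with group and pair as terms over all 45037 probe sets, Benjamini-Hochberg adjustment and a threshold of 0.05. Residual degrees of freedom were 1 and those of the prior 2.97. The fit was tested on simulated data. Ratios were counted at 2-fold within and 4-fold between pairs. A probe set with several symbols was left out.

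The collagen genes and the lists were chosen with earlier results of these data known. Among collagen genes above an array median on at least 1 array, the naming rule took those past the test, at least 2-fold apart in both pairs or 4-fold apart between pairs, the 3 highest on each array, the 2 highest and 2 lowest mean ratios of each class, and the chains of types I, III, IV (Col4a1, Col4a2) and VI (Col6a1 to Col6a3), 25 in all. From the pathway lists, but not the marker lists, it took members past the test and up to 3 with the largest mean ratios of either sign. Other genes were named after their values were seen. Col6a6 and Col28a1 were not analysed here. Promoter windows and neighbours came from RefSeq (GRCm38.p6). Alternatives covered normalization, filters, moderation, probe set choice, the pair as a block and leaving out each array.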

Additional observations from a re-analysis of the deposited data

Results flagged for a closer look

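Some values had opposite signs in the 2 pairs, and the difference between the pairs was not tested. The FACIT median was -0.13 (ES pair) and 0.15 (plain pair). Col2a1 had ratios of 0.33 and -0.12, Col9a1 of -0.33 and 0.16, and Col25a1 of 0.21 and -0.24. With 2 arrays a group, single arrays could not be tested for standing apart.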

How the results depend on the processing

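The number of collagen genes past limma's test depended on the settings, and none fell under any. The 4 that rose became 0 with no replicate block for the pair and 0 with each array centred on its median. At an unadjusted p under 0.05 these settings gave 17 and 20 higher. Of all 45037 probe sets 3497 and 7405 were under it, in either direction. There were 15 with quantile normalization, 10 over probe sets above the median probe set, 10 with eBayes trend and 17 with eBayes robust. An adjusted p of 0.10 gave 15, and the mean of all probe sets of a gene gave 14. Calls over all probe sets, in either direction, grew as well. From 587 of 45037 they became 2045, 1326 (of 22518 tested), 898, 2623 and 2188 in the same order. With the mean of probe sets 877 of 19761 genes passed. Leaving out each array in turn was fitted without the block, where no probe set passed even with all 4 arrays. It therefore cannot show how far the calls depend on an array. The counts of genes at least 2-fold higher in both pairs stayed within 1.5 times of 15 under every alternative run for them. The fibrillar median of the ES pair became 1.94 without probe sets of _a, _s or _x suffix and 2.01 with probe sets at least 1 below the array maximum, an alternative chosen after seeing the data. The basement membrane median of the ES pair became 0.45 with centred arrays, 0.34 with values below the array median set to it, 0.75 over members above a median and 0.397 with the mean of probe sets, and that of the plain pair 0.39, 0.77 and 0.22 under the last 3 of these. For the other types the ES pair gave 0.085 with low values set to the median and 1.71 over members above a median, where the plain pair gave 1.22. The FACIT median of the plain pair turned to -0.04 without suffixed probe sets. Leaving out each array in turn, without the block, turned signs for 6 named genes, with ranges of -0.19 to 0.4 for Col2a1 (below 0 without SACC 1), -0.48 to 0.03 for Col4a3 (above 0 without control 2), -0.97 to 0.47 for Col4a6 (0.3 without SACC 2, 0.47 without control 1), -0.53 to 0.06 for Col6a4 (above 0 without SACC 2), -1.37 to 0.86 for Col8a1 (0.695 without SACC 2, 0.86 without control 1) and -0.9 to 2.09 for Col14a1 (-0.375 without SACC 1, -0.9 without control 2). Without the block, means of other named genes moved by over 1.5 times to 0.805 for Col1a2, 0.795 for Col3a1 and 0.785 for Col5a2 without control 2, to 0.74 for Col4a1 and 0.85 for Col7a1 without SACC 1, and to 1.065 or 3.475 for Col11a1 without SACC 1 or SACC 2. The mean of all probe sets moved Col5a3 to 0.8, Col14a1 to 0.235 and Col20a1 to -0.246. A fit without an array set the remaining array of 1 group against both arrays of the other. Differences between the tables therefore enter the means of those fits. Such differences, ES pair minus plain pair, were 1.9 for SACCs and 2.23 for controls in Col8a1, and 1.94 and 2.99 in Col14a1. How much of each move they make was not tested, nor was the cause of the moves under other alternatives. Signal at or below the array median limits 11 of the 42 genes on all arrays and another 6 on some of them. Genes just above it are limited as well.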
